A study of Mus musculus with 18 samples.

Results

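Ly6c1, Ly6c2, Ly6a, Ly6e and Ly6d are mouse genes for Ly6 surface antigens, and they were taken by symbol as 5 of the 23953 gene rows of the series. All 5 had a row, and all 5 passed the filter on low values. RNA was measured in naive T cells of C57BL/6 mice, taken by flow sorting for CD4, for lack of CD25 and for a naive phenotype, in 6 genotypes with 3 libraries each. Cluster Tg mice over-expressed the whole microRNA cluster of miR-23, miR-27 and miR-24 in T cells. The miR-24 Tg, miR-27 Tg and miR-23 Tg mice over-expressed a single microRNA of it, DKO mice had a T cell deletion of the miR-23a and the miR-23b cluster, and WT mice were the common control. In 1 field the labels write the last 2 genotypes as DKO Tg and WT Tg, without saying more. Levels are RPKM, reads scaled for transcript length and for the library's mapped total, as the authors deposited them. The sources used here do not give the promoter or Cre line, the ages of the mice or the animals behind each library. The p-values thus measure only the spread between libraries, which may be technical.

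Ly6 proteins are small, disulphide-rich molecules, most of them tied to the outer face of the plasma membrane by a glycosylphosphatidylinositol anchor, and they serve as markers of blood cell types. Ly6c1 and Ly6c2 encode the Ly6C antigens, which in mice mark inflammatory monocytes and memory or effector T cells. Ly6a encodes Sca-1, a marker of mouse blood stem cells that lymphocytes raise on activation and in response to interferons, and Ly6e is likewise inducible by interferon. Ly6d marks mouse lymphoid progenitors committed to the B lineage and B cells. The members lie within 349.9 kb on chromosome 15 (GRCm38, GENCODE vM21), with Ly6e on the plus strand and the other members on the minus strand.

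The mature microRNAs that distinguish the transgenic genotypes are shown because the seed (bases 2 to 8, in capitals) sets which 3′ UTR letters they pair with. They are RefSeq sequences (GRCm38.p6), and each has a seed of its own.
mmu-miR-24-3p: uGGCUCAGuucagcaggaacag
mmu-miR-27a-3p: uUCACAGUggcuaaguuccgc
mmu-miR-23a-3p: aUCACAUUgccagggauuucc
None of the 5 members had a match in its annotated 3′ UTR to bases 2 to 8 of any of the 3 microRNAs, nor to bases 2 to 7 followed by an A. The letters searched on the transcript strand were CTGAGCC and TGAGCCA for miR-24, ACTGTGA and CTGTGAA for miR-27, and AATGTGA and ATGTGAA for miR-23, where the pair for 1 microRNA can overlap. Among 3′ UTRs of like length, between 6.57% and 26.3% held such a match, the highest share being that of miR-27 in UTRs as long as that of Ly6e (1192 bases).

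Ly6c1 and Ly6c2 are near copies, and their shared sequence bears on every value given for them. Their coding sequences had the same base at 384 of 393 positions (97.7%), and their longest shared run in the mRNA was 188 bases. The last coding exon is printed for both, with the 3 positions where they differ in capitals, from chr15:75045405-75045610 for Ly6c1 and chr15:75108546-75108751 for Ly6c2 (GRCm38, minus strand).
Ly6c1: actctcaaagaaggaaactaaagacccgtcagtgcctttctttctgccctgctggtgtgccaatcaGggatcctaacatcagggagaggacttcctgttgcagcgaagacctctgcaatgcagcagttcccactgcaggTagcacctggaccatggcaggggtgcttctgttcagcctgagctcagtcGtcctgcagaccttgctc
Ly6c2: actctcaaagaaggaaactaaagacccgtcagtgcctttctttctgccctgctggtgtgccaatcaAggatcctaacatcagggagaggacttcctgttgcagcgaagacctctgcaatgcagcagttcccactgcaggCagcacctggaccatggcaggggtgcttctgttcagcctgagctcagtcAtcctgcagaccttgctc
Of all 50-base windows of the transcript, 36.7% in Ly6c1, 33% in Ly6c2 and 14.5% in Ly6a also occurred in another gene's transcript, against 0% in Ly6e and Ly6d. The sources used here do not say how reads that fit several genes were shared out. The split between Ly6c1 and Ly6c2 is therefore uncertain, and so, to a smaller degree, is the value of Ly6a.

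The promoters of Ly6c1 and Ly6c2 are printed because these neighbours had different patterns across the genotypes. The 250 bases before each start (RefSeq, GRCm38.p6, minus strand, chr15:75048838-75049087 for Ly6c1 and chr15:75111972-75112221 for Ly6c2) had the same base at 164 of 216 aligned positions (75.93%). Capitals mark the 86 bases of each that are not paired with the same base in the other.
Ly6c1: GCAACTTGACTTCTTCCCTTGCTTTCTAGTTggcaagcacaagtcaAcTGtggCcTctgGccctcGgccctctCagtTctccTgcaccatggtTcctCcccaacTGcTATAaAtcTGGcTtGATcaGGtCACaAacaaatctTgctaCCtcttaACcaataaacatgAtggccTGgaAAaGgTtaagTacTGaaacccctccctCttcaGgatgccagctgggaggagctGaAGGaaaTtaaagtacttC
Ly6c2: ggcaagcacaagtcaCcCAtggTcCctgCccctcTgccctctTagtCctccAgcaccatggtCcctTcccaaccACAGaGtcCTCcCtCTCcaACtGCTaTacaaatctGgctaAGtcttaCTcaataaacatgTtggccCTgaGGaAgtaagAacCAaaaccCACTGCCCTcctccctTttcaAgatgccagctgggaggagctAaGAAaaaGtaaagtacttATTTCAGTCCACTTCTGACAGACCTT
With both strands searched, TATAAA occurred in the Ly6c1 window at position -143, and in 13% of 27025 promoters. The windows held no match to the core of the interferon-stimulated response element, GAAA and GAAA parted by any 2 bases (3.04% of promoters), to TTCNNNGAA, the interferon gamma-activated site (7.18%), or to TCACACC, a T-box motif (3.31%). Such matches describe letters in this window only. The annotation is of GRCm38, while the deposited values rest on mm9, per the submitters' processing notes.

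In WT cells the members spanned a wide range of RPKM, a scale that is per length and so allows genes to be set side by side. Ly6e averaged 451 ± 19.3 RPKM (SD, n = 3) and ranked 153rd of 23951 genes, while Ly6a averaged 129 ± 11.2 and Ly6c1 107 ± 19.95 RPKM. Ly6c2 averaged 4.01 ± 0.597 RPKM and Ly6d 1.07 ± 0.479 RPKM. The order by how much a member varied over the 18 libraries was nearly the reverse. The highest library held 63.6 times the lowest for Ly6d, 30.1 times for Ly6c2, 6.47 times for Ly6a, 6.01 times for Ly6c1 and 2.29 times for Ly6e.

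**Figure D1:**
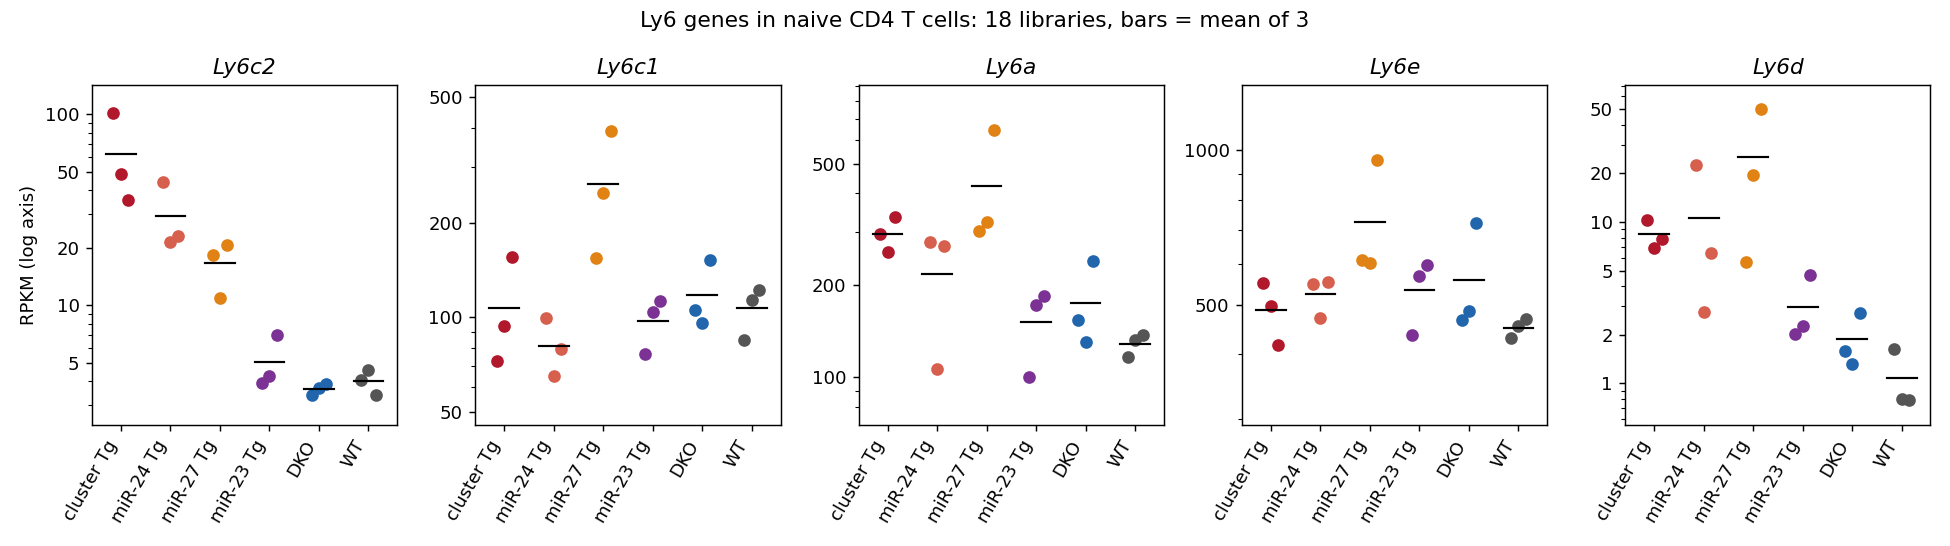
RPKM of each Ly6 member (log axis) in every library of cluster Tg, miR-24 Tg, miR-27 Tg, miR-23 Tg, DKO and WT, with 1 point per library and a bar at the group mean. The Ly6c2 points of cluster, miR-24 and miR-27 Tg all lie above 10 RPKM and those of miR-23 Tg, DKO and WT all lie below 7 RPKM, whereas the Ly6e points lie within a factor of 2.29.

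The transgenic library sets carried the microRNA named in their label. The Mir24-2 hairpin had 13888 to 70491 RPKM in cluster Tg and miR-24 Tg libraries, and 0 to 139.8 RPKM in the others. Mir27a had 27980 to 234933 RPKM in cluster Tg and miR-27 Tg, and Mir23a 32829 to 176364 RPKM in cluster Tg and miR-23 Tg, against at most 588 RPKM for either in the others. The DKO libraries gave 0 RPKM for Mir24-2 and 0 to 39.5 RPKM for Mir27a, against 18.9 to 45.99 and 95.6 to 194 RPKM in WT. For Mir23a the ranges overlapped, with 0 to 76.1 RPKM in DKO and 0 to 279.5 RPKM in WT. Depth relative to WT replicate 1 was estimated from RPKM ratios of genes under 0.1 RPKM, taken to hold a single read in each library. The estimate ran from 0.634 (miR-27 Tg replicate 3) to 1.47 (cluster Tg replicate 3), and absolute depth is unknown. The mean over 80 ribosomal protein genes stood apart in miR-27 Tg replicate 3 (1338 RPKM) and DKO replicate 3 (936 RPKM), against 238 to 527 RPKM in the other 16 libraries. These 2 libraries also gave the highest values of their groups for all 5 members, so the calls that changed without them are given at each result. In the other 16, the ribosomal mean was 238, 297 and 362 RPKM in cluster Tg replicates 1 to 3, below WT (506 to 527). It was 341 and 361 RPKM in miR-27 Tg replicates 2 and 1, 406 to 424 in miR-24 Tg, 422 to 480 in miR-23 Tg, and 449 and 507 in DKO replicates 2 and 1. Ly6c2 ran the other way within cluster Tg, with 102, 48.8 and 35.6 RPKM in replicates 1 to 3. The part of this difference in the Ly6 values was not tested. Of the 3 miR-23 Tg columns, 2 carry the same replicate name. They are called unnumbered libraries here and are assumed to be separate samples (r = 0.994, with 0 identical values among 10118 genes).

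The label of naive CD4 T cells was checked against markers. Cd3e, a subunit of the T cell receptor complex, had 267 to 565 RPKM over the 18 libraries, and Cd4 had 334 to 617 RPKM. In bulk RNA, fewer cells of a type and less RNA per cell cannot be told apart. Of 7 genes typical of naive CD4 T cells, 0 rose or fell by limma's adjusted p in miR-24 Tg and miR-27 Tg.

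Ly6c2 changed most clearly with genotype. It had 102, 48.8 and 35.6 RPKM in cluster Tg replicates 1 to 3, 43.9, 21.4 and 23.03 RPKM in miR-24 Tg, and 18.4, 10.9 and 20.7 RPKM in miR-27 Tg. It had 3.92 RPKM in miR-23 Tg replicate 1 and 4.26 and 6.96 RPKM in the unnumbered miR-23 Tg libraries, 3.38, 3.68 and 3.86 RPKM in DKO, and 4.06, 4.59 and 3.40 RPKM in WT. Every library of cluster, miR-24 and miR-27 Tg lay above every library of the other genotypes, while miR-23 Tg and DKO overlapped WT. The group means of cluster, miR-24 and miR-27 Tg were 15.5, 7.34 and 4.15 times that of WT.

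The log2 fold change of Ly6c2 was 3.52 (SE 0.35, adjusted p = 5.36e-05) in cluster Tg, 2.53 (SE 0.35, adjusted p = 0.00164) in miR-24 Tg and 1.78 (SE 0.35, adjusted p = 0.00697) in miR-27 Tg, each against WT. These are from limma on log2(RPKM + 1), which understates the change of low genes, with Benjamini-Hochberg adjustment over 11099 genes, and a gene is called where the adjusted p is under 0.05. Among the members, Ly6c2 alone was called in cluster Tg against WT, where 5.63% of all tested genes were called higher. It was likewise the 1 member called in miR-24 Tg, where 2.32% of tested genes were called higher. In cluster Tg against DKO the log2 fold change of Ly6c2 was 3.63 (SE 0.35, adjusted p = 2.67e-05), again the 1 member called, with 7.14% of tested genes called higher. In this comparison Ly6a and Ly6d also passed with miR-27 Tg replicate 3 and DKO replicate 3 left out (adjusted p = 0.0467 and 0.0403), and Ly6d in the fit of only the 2 groups (adjusted p = 0.0126).

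Along the order of Ly6c2 levels, 1 step between neighbouring genotypes passed the test. This was miR-27 Tg over miR-23 Tg, a log2 difference of 1.53 (SE 0.35, adjusted p = 0.0106). Between these 2 genotypes 4 members were called, all but Ly6e, and 16.6% of tested genes. Cluster Tg over miR-24 Tg was 0.98 (adjusted p = 0.211, 95% interval 0.22 to 1.75), and miR-24 Tg over miR-27 Tg was 0.76 (adjusted p = 0.173). Across a longer span, cluster Tg exceeded miR-27 Tg by 1.74 (SE 0.35, adjusted p = 0.0156). Ly6c2 was the 1 member called between them, where 3.79% of tested genes were called.

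Ly6c1 followed another order. It had 154, 248 and 391 RPKM in miR-27 Tg replicates 1 to 3, 72.4, 93.8 and 156 RPKM in cluster Tg, and 99.5, 65.1 and 79.5 RPKM in miR-24 Tg. It had 76.4 RPKM in miR-23 Tg replicate 1 and 104 and 113 RPKM in the unnumbered miR-23 Tg libraries, 106, 96.1 and 152 RPKM in DKO, and 84.5, 114 and 123 RPKM in WT. The miR-27 Tg libraries lay above all WT libraries, and the lowest of them fell just below the highest cluster Tg library. Cluster Tg, miR-24 Tg, miR-23 Tg and DKO each overlapped WT.

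In miR-27 Tg against WT the log2 fold change of Ly6c1 was 1.21 (SE 0.34, adjusted p = 0.0377). This call did not hold without miR-27 Tg replicate 3 (0.88, adjusted p = 0.104; 0.0665 with DKO replicate 3 also left out), without miR-27 Tg replicate 2 (1.21, adjusted p = 0.0628), or without WT replicate 1, 2 or 3 (adjusted p = 0.147, 0.0838 and 0.0682). Cluster Tg differed from WT by -0.05 (adjusted p = 0.978, 95% interval -0.77 to 0.67) and miR-24 Tg by -0.39 (adjusted p = 0.759, 95% interval -1.11 to 0.33). The direct difference of miR-24 Tg from miR-27 Tg was -1.61 (SE 0.34, adjusted p = 0.00663). Ly6c1 was the 1 member called between these genotypes, where 13% of tested genes were called. That of cluster Tg from miR-27 Tg was -1.26 (adjusted p = 0.0523). Over the 18 libraries Ly6c1 and Ly6c2 had r = -0.03 on the log2 scale, described without a test since libraries share genotypes.

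The part of the summed Ly6c1 and Ly6c2 level that was assigned to Ly6c2 shows the same contrast on 1 scale. It was 58.4%, 34.2% and 18.6% in the cluster Tg libraries, 30.6%, 24.7% and 22.5% in miR-24 Tg, and 10.7%, 4.19% and 5.02% in miR-27 Tg. It was 4.88%, 3.94% and 5.82% in miR-23 Tg, 3.09%, 3.69% and 2.47% in DKO, and 4.58%, 3.87% and 2.70% in WT. All cluster Tg and miR-24 Tg libraries lay above all others. In exact two-sided permutation tests against WT, cluster Tg and miR-24 Tg each gave p = 0.1, the smallest that 3 libraries against 3 allow (adjusted p = 0.25 over 5 comparisons).

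**Figure D2:**
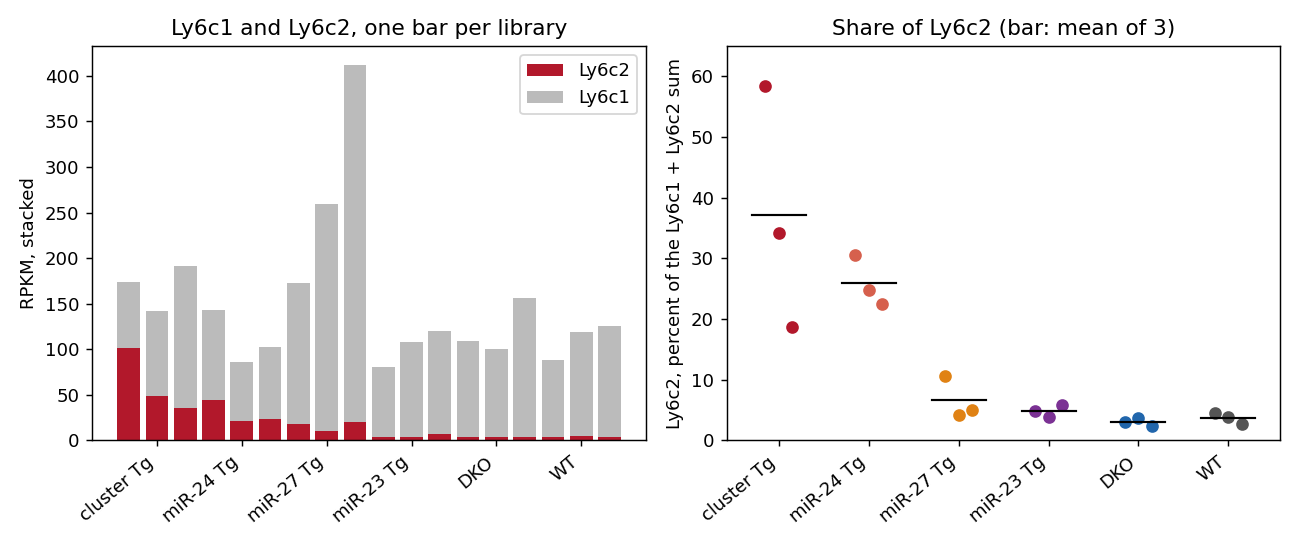
Ly6c2 as a percentage of the summed RPKM of Ly6c1 and Ly6c2, with 1 point per library and genotypes from cluster Tg to WT. Cluster Tg (18.6% to 58.4%) and miR-24 Tg (22.5% to 30.6%) lie above the libraries of the other genotypes, which reach at most 10.7%.

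Ly6a was highest in miR-27 Tg. It had 301, 323 and 647 RPKM in miR-27 Tg replicates 1 to 3, 294, 258 and 335 RPKM in cluster Tg, and 278, 107 and 270.1 RPKM in miR-24 Tg. It had 100.1 RPKM in miR-23 Tg replicate 1 and 172 and 185 RPKM in the unnumbered miR-23 Tg libraries, 154, 130.4 and 240.5 RPKM in DKO, and 116, 132 and 138 RPKM in WT. All miR-27 Tg and cluster Tg libraries lay above WT, whereas miR-24 Tg replicate 2 and miR-23 Tg replicate 1 lay below it and DKO overlapped it. The log2 fold change against WT was 1.62 (SE 0.38, adjusted p = 0.0166) in miR-27 Tg, and without WT replicate 1 it was 1.55 (adjusted p = 0.0652).

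The difference of Ly6a in cluster Tg from WT was 1.19 (SE 0.38, adjusted p = 0.0746), which did not pass. With miR-27 Tg replicate 3 and DKO replicate 3, whose spread enters the shared error, left out, the same difference had adjusted p = 0.0156. In miR-24 Tg it was 0.63 (adjusted p = 0.542, 95% interval -0.18 to 1.45). No step between neighbouring genotypes in the order of Ly6a, Ly6c1, Ly6e or Ly6d levels passed the test.

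Ly6e, the most abundant member, did not pass the F test over all 6 genotypes (adjusted p = 0.281). It had 610.2, 603 and 956 RPKM in miR-27 Tg, 549.9, 496 and 417 RPKM in cluster Tg, and 549.6, 472 and 553 RPKM in miR-24 Tg. It had 437, 568 and 598 RPKM in miR-23 Tg, 467, 485 and 722 RPKM in DKO, and 431, 454 and 469 RPKM in WT. The miR-27 Tg and miR-24 Tg libraries lay above all WT libraries, and cluster Tg, miR-23 Tg and DKO overlapped WT. Its log2 fold change in miR-27 Tg was 0.65 (SE 0.22, adjusted p = 0.0818), and in cluster Tg 0.10 (adjusted p = 0.903, 95% interval -0.36 to 0.57).

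Ly6d had the widest range over the 18 libraries. It had 5.62, 19.4 and 50.5 RPKM in miR-27 Tg, 10.3, 6.89 and 7.89 RPKM in cluster Tg, and 22.5, 2.78 and 6.47 RPKM in miR-24 Tg. It had 2.04 RPKM in miR-23 Tg replicate 1 and 2.26 and 4.67 RPKM in the unnumbered miR-23 Tg libraries, 1.58, 1.31 and 2.73 RPKM in DKO, and 1.63, 0.804 and 0.793 RPKM in WT. The libraries of all 4 transgenic genotypes lay above all WT libraries, with a spread of 8.98 times within miR-27 Tg and 8.12 times within miR-24 Tg. The log2 fold change against WT was 3.23 (SE 0.66, adjusted p = 0.00783) in miR-27 Tg, and 2.51 without miR-27 Tg replicate 3. In cluster Tg it was 2.18 (SE 0.66, adjusted p = 0.0557) and in miR-24 Tg 2.10 (SE 0.66, adjusted p = 0.106), and neither passed. With miR-27 Tg replicate 3 and DKO replicate 3 left out, both passed (adjusted p = 0.0127 and 0.0249).

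Set together, 4 of 5 members were called in miR-27 Tg against WT in the fit of all 18 libraries, where 5.77% of all tested genes were called higher. This count was 2 without WT replicate 1, and in the fit of only the 2 groups it was 0 in miR-27 Tg and 3 in cluster Tg. In that comparison the libraries of the groups did not overlap for any of the 5 members, each of them higher in miR-27 Tg, as was so for 15% of tested genes. Cluster Tg had 3 members with no overlap with WT (Ly6c2, Ly6a and Ly6d), as had 22.1% of tested genes, and miR-24 Tg had 3 (Ly6c2, Ly6e and Ly6d), as had 17.5% of tested genes. In miR-23 Tg 1 member lay above WT without overlap (Ly6d), as did 15.2% of tested genes. The median log2 fold change of the 5 members was 1.19 in cluster Tg, 0.63 in miR-24 Tg and 1.62 in miR-27 Tg, against a median of 0.00 to 0.03 over all tested genes. The F test over the 6 genotypes called 4 of 5 members, with 19% of tested genes called. These comparisons share the WT libraries, so they are not independent of each other.

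Neither miR-23 over-expression nor deletion of the clusters moved a member past the threshold. In miR-23 Tg against WT 0 of 5 members were called by limma, and 0 had an unadjusted p under 0.05 (0.045% of tested genes called, and 847 with an unadjusted p under 0.05). In DKO against WT 0 of 5 were called and 0 had an unadjusted p under 0.05, with 0% of tested genes called and 81 with an unadjusted p under 0.05. The log2 difference of DKO from WT ran from -0.11 for Ly6c2 (95% interval -0.87 to 0.65) to 0.46 for Ly6d (95% interval -0.95 to 1.88). For miR-23 Tg it ran from -0.13 for Ly6c1 (95% interval -0.85 to 0.59) to 0.91 for Ly6d (95% interval -0.51 to 2.32).

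**Figure D3:**
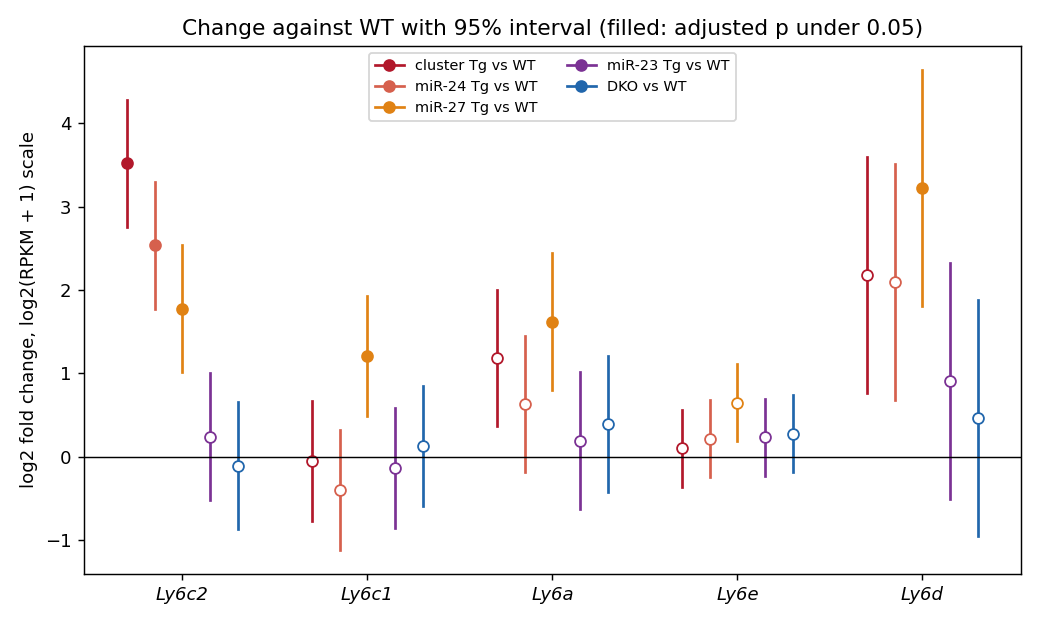
Log2 fold change (RPKM + 1) of each Ly6 member in cluster Tg, miR-24 Tg, miR-27 Tg, miR-23 Tg and DKO, each against WT, with 95% intervals; filled points passed adjusted p under 0.05 over all 11099 genes. The 6 called points are Ly6c2 in cluster, miR-24 and miR-27 Tg, and Ly6c1, Ly6a and Ly6d in miR-27 Tg.

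Other genes of the Ly6 and uPAR family, which share the fold of the members, were mostly below 1 RPKM. Of 35 such genes 33 had a row, 27 of these reached 1 RPKM in no library, 9 were listed at 0 in all 18, and 5 were tested. Lynx1, a modulator of nicotinic acetylcholine receptors, rose by 1.09 in cluster Tg (adjusted p = 0.000115), by 0.65 in miR-24 Tg (adjusted p = 0.00846) and by 0.93 in miR-27 Tg (adjusted p = 0.000442). Lypd6b fell in miR-27 Tg, with a log2 fold change of -0.70 (adjusted p = 0.0373). Plaur, the urokinase receptor, had log2 fold changes of -0.99 in cluster Tg (adjusted p = 0.328) and -1.43 in miR-27 Tg (adjusted p = 0.112), and Ly6k and Ly6g5b were called in no comparison with WT.

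The level of Ly6d moved with markers of B cells. Over the 18 libraries it had r = 0.958 with the summed level of 6 B cell genes on the log2 scale (0.949 without the 2 libraries with high ribosomal protein genes). That sum was 25.9 to 135 RPKM in miR-27 Tg, 16.2 to 34.0 in cluster Tg, 16.8 to 74.7 in miR-24 Tg, 4.25 to 17.5 in miR-23 Tg, 4.12 to 6.23 in DKO and 3.98 to 5.56 in WT. Of the 6 genes, 6 rose in miR-27 Tg, 3 in miR-24 Tg and 0 in cluster Tg (median log2 fold changes 2.45, 1.86 and 1.25), and Ms4a1, which encodes the B cell antigen CD20, had 3.20 to 11.4 RPKM in miR-27 Tg against 0.190 to 0.652 RPKM in WT. The ratio of Ly6d to this sum was 0.217 to 0.375 in miR-27 Tg, 0.232 to 0.520 in cluster Tg and 0.165 to 0.302 in miR-24 Tg, ranges that overlap that of WT (0.173 to 0.293). Ly6d had a lower r with the summed neutrophil genes (0.793) and with the summed plasmacytoid dendritic cell genes (0.759). The part of B cells and of these other cells in the Ly6d result was not tested.

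The 4 genes most like Ly6d over the 18 libraries, by Pearson r of log2(RPKM + 1) among all tested genes, were Tnfrsf13c (r = 0.973), Cd79b (0.962), Unc93b1 (0.960) and Cd74 (0.955). Tnfrsf13c encodes the BAFF receptor of B cells, Cd79b a subunit of the B cell receptor, Unc93b1 a chaperone of endosomal Toll-like receptors, and Cd74 the invariant chain of MHC class II. Cd74 averaged 282 ± 234 RPKM in miR-27 Tg and 14.98 ± 4.05 RPKM in WT (SD, n = 3 each). Its miR-27 Tg libraries ran from 89.9 to 543 RPKM.

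The level of Ly6c2 moved with genes of memory and effector CD4 T cells and with markers of other cells. Of 30 tested memory and effector genes, 22 rose in cluster Tg, 16 in miR-24 Tg and 14 in miR-27 Tg (median log2 fold changes 1.65, 1.47 and 1.09), and Fasl fell in cluster Tg (-0.78) and miR-27 Tg (-1.07). Examples are the granzyme Gzmk, which rose by 3.55 in cluster Tg (adjusted p = 1.02e-05), and the chemokine Ccl5, which rose by 3.71 in miR-24 Tg (adjusted p = 0.00286) and 3.61 in miR-27 Tg (adjusted p = 0.00197). Ly6c2 had r = 0.827 with the summed level of this list over 18 libraries, and 0.970 without the 2 libraries with high ribosomal protein genes. The sum was 2046 to 2646 RPKM in cluster Tg, 1731 to 2231 in miR-24 Tg, 1353 to 3892 in miR-27 Tg, 1105 to 1173 in miR-23 Tg, 943 to 1426 in DKO and 1135 to 1336 in WT.

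Ly6c2 is also known from monocytes and CD8 T cells, which a sort for CD4 and a naive phenotype should remove. The summed level of 6 monocyte and myeloid genes was 15.9 to 28.4 RPKM in cluster Tg, 11.6 to 29.3 in miR-24 Tg, 27.0 to 35.8 in miR-27 Tg and 2.79 to 3.83 in WT. Its r with Ly6c2 was 0.848 over 18 libraries, and 0.849 without the 2 libraries with high ribosomal protein genes. Of its 4 tested genes, 2, 1 and 3 rose in cluster, miR-24 and miR-27 Tg. Csf1r, the growth factor receptor that defines monocytes, had at most 0.261 RPKM in cluster Tg, 1.29 in miR-24 Tg and 1.75 in miR-27 Tg, against at most 0.064 in WT. Ly6c2 was 1.93 to 3.58 times the myeloid sum in cluster Tg, 1.4997 to 1.99 times in miR-24 Tg and 0.303 to 0.709 times in miR-27 Tg, against 1.01 to 1.46 times in WT.

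The summed level of 4 CD8 T cell genes was 53.2 to 109 RPKM in cluster Tg, 50.7 to 70.6 in miR-24 Tg, 46.7 to 149 in miR-27 Tg and 22.7 to 25.4 in WT. Its r with Ly6c2 was 0.849 over 18 libraries, and 0.922 without the 2 libraries with high ribosomal protein genes. Of the 4 genes, 3, 2 and 3 rose in cluster, miR-24 and miR-27 Tg. Cd8a, a chain of the CD8 co-receptor, rose by 2.43 in cluster Tg (adjusted p = 0.000349), 1.83 in miR-24 Tg (adjusted p = 0.00535) and 2.25 in miR-27 Tg (adjusted p = 0.000773), and had 3.29 to 11.2 RPKM in cluster Tg against 0.211 to 0.530 in WT. Nkg7, a granule protein, rose by 3.14, 2.51 and 3.06 in these genotypes. Cd8b1, also of this list, rose in miR-27 Tg (1.22, adjusted p = 0.0158) and was not called in cluster Tg or miR-24 Tg. Nkg7 and Eomes stand in both the CD8 and the memory list, and Ccr2 in both the myeloid and the memory list. Ly6c2 was 0.633 to 0.936 times the CD8 sum in cluster Tg, against 0.147 to 0.181 times in WT. This ratio was 0.335 to 0.623 in miR-24 Tg and 0.139 to 0.235 in miR-27 Tg, where it overlapped WT. It was 0.219 to 0.358 in miR-23 Tg, above WT, and 0.111 to 0.158 in DKO. Ly6c2 was 0.0174 to 0.0384 times the memory sum in cluster Tg, against 0.00299 to 0.00344 times in WT. The ratio to the memory sum was 0.0118 to 0.0197 in miR-24 Tg and 0.00532 to 0.0106 in miR-27 Tg. It was 0.0035 to 0.0063 in miR-23 Tg, also above WT, and 0.0027 to 0.0039 in DKO. A sum is weighted to the most abundant genes of its list, so these ratios do not set Ly6c2 against each list gene. The log2 fold changes of Gzmk (3.55) and S100a6 (3.58) in cluster Tg were close to that of Ly6c2 (3.52), while the memory list median was 1.65. Of 2 tested NK cell genes, 2 rose in miR-24 Tg, Klrd1 by 1.69 and Klrk1 by 1.45, and 0 in cluster Tg and miR-27 Tg. The part of these cells in the Ly6c2 result was not tested.

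The genes most like Ly6c2 over the 18 libraries were Anxa1 (r = 0.980), Stx11 (0.966), Kdelc2 (0.965) and Anxa2 (0.962). Anxa1 and Anxa2 encode annexins, proteins that bind membrane phospholipids in the presence of calcium, and Stx11 a syntaxin of granule release. Anxa2 averaged 69.1 ± 13.5 RPKM in cluster Tg, 49.96 ± 8.001 in miR-24 Tg, 34.4 ± 12.9 in miR-27 Tg and 9.10 ± 2.32 in WT (SD, n = 3 each). Its order over these genotypes was that of Ly6c2, a likeness by which Anxa2 was picked. Anxa1 and Anxa2 also stand in the memory and effector list.

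Ly6a stood beside genes that interferons induce. Of 32 such genes, 18 rose in cluster Tg, 22 in miR-27 Tg and 0 in miR-24 Tg, with medians of 0.95, 1.13 and 0.11 on the log2 scale. Ifit3, an antiviral protein, rose by 1.85 in cluster Tg (adjusted p = 0.00213) and by 2.40 in miR-27 Tg (adjusted p = 0.000476), and the 2′-5′ oligoadenylate synthetase Oas1a by 1.63 and 2.24. Over the 18 libraries the summed level of the list had r = 0.875 with Ly6a, 0.721 with Ly6c1, 0.686 with Ly6e and 0.494 with Ly6c2. Without the 2 libraries with high ribosomal protein genes these were 0.805, 0.468, 0.354 and 0.632.

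The sum was 1786, 1344 and 1741 RPKM in miR-24 Tg replicates 1 to 3, against 1337 to 1495 RPKM in WT, and replicate 2 was also the miR-24 Tg library with the lowest Ly6a. Ly6a was 0.155, 0.0793 and 0.155 times the sum in these miR-24 Tg libraries, against 0.0778 to 0.0990 times in WT. It was 0.0699, 0.130 and 0.134 times in miR-23 Tg, 0.0851 to 0.107 times in miR-27 Tg and 0.0947 to 0.126 times in cluster Tg. In DKO the sum was 1745 to 2705 RPKM, above every WT library, with a median log2 fold change of 0.53 and 0 of 32 genes called. Ly6a in DKO replicate 2 lay within the WT range. The genes most like Ly6a were Rras (r = 0.951), Gskip (0.943), Cbx6 (0.934) and Tspan31 (0.932).

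**Figure D4:**
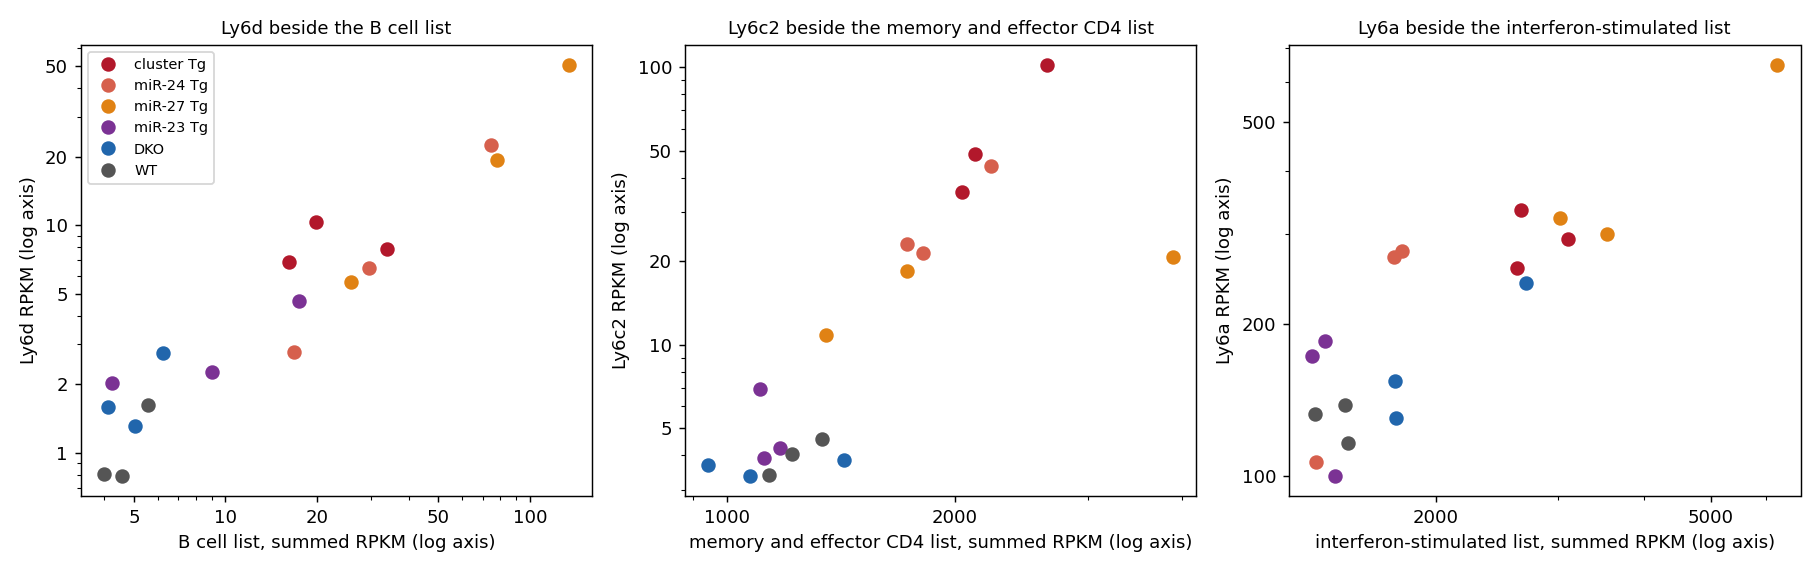
Level of 1 Ly6 member against the summed RPKM of a gene list in the 18 libraries (both axes log), for Ly6d with B cell genes, Ly6c2 with memory and effector CD4 genes, and Ly6a with interferon-stimulated genes, with genotypes by colour. The points lie along a line in the B cell panel (r = 0.958), and in the memory and effector panel miR-27 Tg replicate 3 lies far right of the others at 3892 RPKM.

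Markers of granulocytes and plasmacytoid dendritic cells moved in part with the same genotypes. S100a8, a calcium-binding protein of neutrophils, had 3.81 to 284 RPKM in miR-27 Tg, 1.70 to 46.3 in miR-24 Tg and 0 to 0.319 in cluster Tg, and was listed at 0 in all WT libraries. Of 4 tested neutrophil genes, 2 rose in miR-27 Tg (S100a8 and S100a9) and 0 in cluster Tg and miR-24 Tg. Siglech, which defines plasmacytoid dendritic cells, had at most 0.487 RPKM in miR-24 Tg and was listed at 0 in DKO and WT. It was also above 0 in some libraries of cluster, miR-27 and miR-23 Tg. Of 4 tested genes of that list, 2 rose in cluster Tg, 2 in miR-24 Tg (both times Ccr9 and Tcf4) and 1 in miR-27 Tg (Bst2, which is also in the interferon list). Their part in the Ly6 values of miR-27 Tg and miR-24 Tg was not tested.

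Ly6c1 and Ly6e had their nearest patterns among genes of other kinds. Wdr12, a factor of ribosome assembly, was most like Ly6c1 (r = 0.949), followed by Cdc5l (0.946), Slc25a45 (0.940) and Hcls1 (0.915). For Ly6e the nearest were Nutf2 (r = 0.922), Acrbp (0.895), Zc3h8 (0.894) and Galk2 (0.892), and without the 2 libraries with high ribosomal protein genes their r was 0.657 to 0.768. Among the members themselves, the highest r was that of Ly6a with Ly6d (0.875) and the lowest that of Ly6c1 with Ly6c2. These r describe 18 libraries of 6 genotypes and are not tested.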

How the data were processed

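The authors deposited 1 table of RPKM values for 18 libraries. Total RNA with its small RNAs came from a miRNeasy kit and was sequenced from TruSeq libraries on an Illumina HiSeq, per the labels' protocols. STAR 2.2.0c, HOMER and mm9 were used, per the submitters' processing notes; these do not give strand use or the treatment of shared reads. In 300 rows, none of a member, a value above 0 was under 1e-06 RPKM.

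The filter kept 11099 genes that reached 1 RPKM in 3 or more libraries. limma 3.58.1 (R 4.3.3; lmFit, eBayes with trend) was fitted to log2(RPKM + 1) of all 18 libraries with genotype as the only term, with Benjamini-Hochberg adjustment over all genes tested. The code was tested on simulated data. Of 2 repeated symbols the row with the higher mean was used. Named genes are the 5 members, the 4 genes most like each, up to 3 called genes per list and the defining markers; Fasl, Plaur, Ly6k and Ly6g5b were added after their values were seen. Alternatives are in the closing section. Some single marker genes are not reported here. The members and gene lists were chosen with earlier results of these data known. RPKM hold no read counts, so no counting interval can be had; the median standard error over all genes was 0.20 (log2).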

Additional observations from a re-analysis of the deposited data

How the results depend on the processing

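The Ly6c2 calls in cluster, miR-24 and miR-27 Tg against WT, and in cluster Tg against DKO, held in all runs that left out 1 library (lowest log2 fold change 3.10, 2.22, 1.60 and 3.20). Over all members and alternatives, 356 values kept direction and side of the threshold, 11 passed it newly, 13 no longer passed and 15 changed sign. The number of members called in cluster Tg against WT was 2 with a pseudocount of 0.1, with quantile normalisation and with the replicate block, and 3 in the fit of only the 2 groups and with miR-27 Tg replicate 3 and DKO replicate 3 left out, a choice made after the data were seen. Without those 2 libraries it was 2 in miR-24 Tg against WT and 3 in cluster Tg against DKO, for which the 2-group fit gave 2. In miR-27 Tg against WT the 2-group fit, whose spread comes from 6 libraries alone, called 0 of 5 by limma (adjusted p = 0.0813 for Ly6c2, 0.145 for Ly6a, 0.177 for Ly6d and 0.289 for Ly6c1). Leaving out 1 library gave 2 to 4 members in miR-27 Tg against WT (2 without WT replicate 1) and 2 to 4 in the F test (2 without cluster Tg replicate 2, miR-27 Tg replicate 2 or the first unnumbered miR-23 Tg library). It gave 1 to 1 in the cluster and miR-24 Tg comparisons with WT and in cluster Tg against DKO, and 0 to 0 in miR-23 Tg and DKO.

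The values that changed sign were uncalled. With the replicate block, the differences of miR-23 Tg from WT were -0.34 for Ly6c2 and -0.32 for Ly6a. Without the 2 libraries, Ly6c1 in DKO against WT was -0.066, and in cluster Tg against DKO Ly6c1 was 0.015 and Ly6e 0.025. Leaving out 1 library, Ly6c1 ran from -0.35 to 0.19 in cluster Tg against WT, -0.49 to 0.062 in cluster Tg against DKO, -0.29 to 0.033 in miR-23 Tg and -0.066 to 0.26 in DKO against WT, and Ly6e from -0.29 to 0.025 in cluster Tg against DKO. Ly6c1 in miR-27 Tg no longer passed without the filter on low values (adjusted p = 0.0531) and with quantile normalisation (adjusted p = 0.0606). The cause of these changes was not tested. Samples of the same replicate number did not deviate together throughout (r from -0.11 to 0.58, over 0.1 in 12 of 35 pairs). Pairs of other numbers had r from -0.47 to 0.30, over 0.1 in 8 of 70 pairs. A part shared by number is therefore possible, and the main fit does not model it. The replicate block left out the unnumbered libraries. Over all genes, the 2-group fit called 2302 genes in cluster Tg, 851 in miR-24 Tg, 43 in miR-27 Tg, 14 in miR-23 Tg and 4 in DKO against WT, where the fit of all libraries called 941, 398, 993, 5 and 0. Leaving out 1 library, these were 419 to 710, 180 to 303, 533 to 1223, 1 to 1 and 0 to 0, and without the 2 libraries 3225, 1937, 2218, 432 and 2. RPKM without counts limit what can be said of low values such as Ly6d in WT.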
